A study of Mus musculus with 29 samples.

Results

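The genes described here are 5 members of the sine oculis-related homeobox family, Six2, Six3, Six4, Six5 and Six6, taken by symbol at their mm10 RefSeq positions, out of 20558 protein-coding genes on the chromosomes examined. For each gene, the H2Aub segment types over its body and over 100 kb on each side were read from the genome segmentation that the authors deposited for the whole series. The series profiled monoubiquitinated H2A (H2Aub) and H3K27me3 in 29 mouse libraries of 16 groups by CUT&RUN, which cuts out the chromatin that an antibody has bound. In 16 of the 24 H2Aub libraries, labelled WT, the sources were germinal vesicle and metaphase II oocytes, zygotes, 2-cell and 4-cell embryos, morulae, inner cell mass and E6.5 epiblast, and several of those labelled WT came from Eed (fl/fl) mothers. Other H2Aub libraries, labelled Eed MatKO (maternal knockout), came from Gdf9-Eed (fl/fl) oocytes and from the 4-cell embryos and morulae of such mothers. The rest came from 4-cell embryos labelled PR-DUB (OE) or PR-DUB (CTR). These PR-DUB groups, named after the complex that removes H2Aub, also gave 4 of the 5 H3K27me3 libraries. Zygotes and later stages were labelled as crosses with PWK, and the 26 libraries that carried a number were made from 1 to 300 oocytes or embryos each.

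The segmentation gives each stretch of chromosomes 1 to 19 a type from 1 to 5, with no key to the types and no value for any library. A type is a category and not a level of H2Aub, the sources used here do not name the libraries that entered it, and the read depth behind it is unknown. There are thus no replicates and no test: the values below describe 1 segmentation, beside the same values over all 20558 protein-coding genes. No stage, Eed genotype or PR-DUB group was compared.

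The proteins of this family are homeodomain transcription factors with another conserved domain, named after the family. Through this domain some members, though not all to the same degree, bind Eya coactivators. With Pax, Eya and Dach proteins, members of the family form a network known from the fly eye. It is used in vertebrate eye, ear, kidney and muscle development. H2Aub is laid down by Polycomb repressive complex 1, which is known to bind CpG-rich promoters of developmental regulators in cells that do not express them.

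Six2, a factor that keeps kidney nephron progenitors undifferentiated, and Six3, a regulator of forebrain and eye development, lay side by side in 1 long type 4 segment. The windows below are drawn from the 250 bases before the start sites of both genes and of Six6, a retinal and hypothalamic factor whose body also lay in type 4 but on another chromosome. They are shown because these are the start sites in type 4. Sequences are from RefSeq, build GRCm38.p6 (mm10), 5′ to 3′ on the gene's own strand, and capitals mark every run of at least 11 bases that a window shared, on either strand, with the window of another of the 5 genes.
Six2 (chr17:85688255-85688504, minus strand): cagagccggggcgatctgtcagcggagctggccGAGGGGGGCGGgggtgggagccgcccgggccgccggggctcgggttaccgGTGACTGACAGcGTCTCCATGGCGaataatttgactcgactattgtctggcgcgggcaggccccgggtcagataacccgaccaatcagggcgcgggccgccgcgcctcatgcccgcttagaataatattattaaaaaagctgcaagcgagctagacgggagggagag
Six3 (chr17:85620584-85620833, plus strand): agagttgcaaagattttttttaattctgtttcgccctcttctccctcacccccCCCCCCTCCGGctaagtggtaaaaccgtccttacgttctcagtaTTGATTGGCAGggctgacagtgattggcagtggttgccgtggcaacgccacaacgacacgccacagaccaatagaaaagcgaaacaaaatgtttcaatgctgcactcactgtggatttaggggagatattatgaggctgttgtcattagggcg
Six6 (chr12:72939632-72939881, plus strand): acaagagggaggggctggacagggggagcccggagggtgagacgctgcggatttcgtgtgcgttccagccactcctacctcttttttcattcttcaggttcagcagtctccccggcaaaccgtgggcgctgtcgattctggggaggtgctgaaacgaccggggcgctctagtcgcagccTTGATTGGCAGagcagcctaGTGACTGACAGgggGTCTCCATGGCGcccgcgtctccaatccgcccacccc

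All 5 gene bodies lay wholly in 1 type, as did the bodies of 68.7% of protein-coding genes. Six2, Six3 and Six6 lay in type 4 and Six4 and Six5 in type 3. Type 4 took most of the body of 14.0% of all protein-coding genes and type 3 that of 33.8%. None of the 5 had a body in types 1, 2 or 5, the leading types of 37.2%, 5.44% and 9.53% of all genes. The 5 genes sit on 3 chromosomes, and the windows of Six2 and Six3, and those of Six4 and Six6, overlap, so their types are not separate observations.

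**Figure D1:**
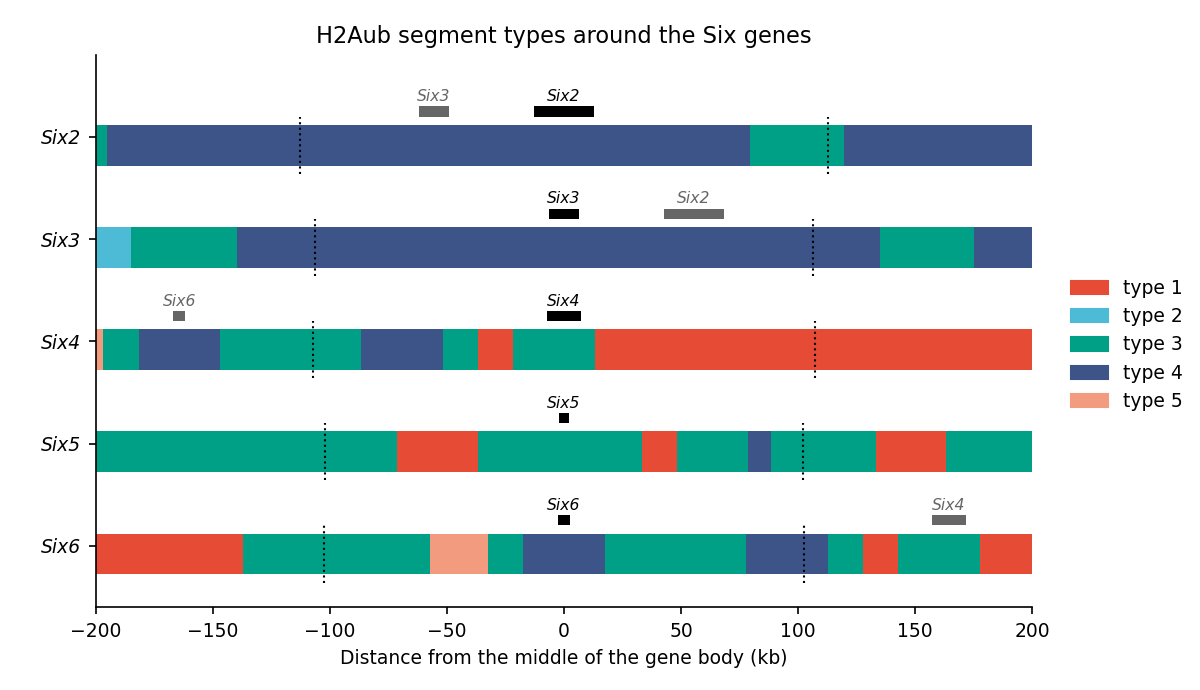
H2Aub segment types within 200 kb of the middle of each gene body, 1 row per gene, with black bars for the gene itself, grey bars for another of the 5 genes and dotted lines at the ends of the window of 100 kb on each side. Six2 and Six3 share 1 type 4 segment of 275 kb, Six6 lies in one of 35 kb, and Six4 and Six5 lie in type 3 segments of 35 and 70 kb.

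Six3 (gene ID 20473) spans 85613608 to 85626191 on chromosome 17, plus strand, and Six2 (gene ID 20472) spans 85662736 to 85688254 on the minus strand, 36.5 kb away. The segment that holds both runs from 85480001 to 85755000, 275 kb. The median type 4 segment was 40 kb, and 96.4% of the 4751 type 4 segments were shorter. In this share, and in those for type 3 below, every segment counts once, whether or not it holds a gene. It is thus not a rank among segments that hold genes. From the Six3 body to the ends of the segment there were 134 kb on the lower and 129 kb on the higher side, so the whole Six3 window of 213 kb was type 4. Such a window was found around 0.452% of protein-coding genes. Six2 lay nearer to the higher end of the segment, at 66.7 kb, which is its upstream side. Its upstream 100 kb were 66.7% type 4 and 33.3% type 3, and its downstream 100 kb were wholly type 4. The Six2 window was 85.3% type 4 and 14.7% type 3. This type 3 share came from a segment of 40 kb (85755001 to 85795000), followed by another type 4 segment of 160 kb.

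No protein-coding gene outside the family overlapped the windows of Six2 and Six3. The nearest were Camkmt, a calmodulin methyltransferase gene 155 kb below Six3, which was 45.8% type 3, and Srbd1, 296 kb above Six2, which was 93.4% type 1. Non-coding genes did lie in the type 4 segment. Six3os1, a long non-coding RNA gene, overlapped the Six3 body over 4789 bases, and CJ186046Rik, another, began 0.239 kb beyond Six2. Both lay wholly in type 4.

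Six6 (gene ID 20476, chromosome 12, 72939882 to 72944899, plus strand) also had its body wholly in type 4, but in a segment of 35 kb (72925001 to 72960000), below the type 4 median of 40 kb. The body was 14.9 and 15.1 kb from the ends of this segment. Type 3 lay on both sides, 15 kb below and 60 kb above, and beyond the lower one lay 25 kb of type 5. The Six6 window was therefore 58.6% type 3, 29.2% type 4 and 12.2% type 5. Among the 5 windows type 5 was found in that of Six6 alone, and it was present around 25.6% of all protein-coding genes. The type 5 segment lay under 4930447C04Rik (synonym Six6os1), a gene known for meiotic chromosome synapsis, whose body, 21.9 kb from Six6, was 66.2% type 5 and 33.8% type 3.

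Six4 (gene ID 20474, chromosome 12, 73099609 to 73114031, minus strand), which acts in muscle development, lay 155 kb above Six6 in a type 3 segment of 35 kb (73085001 to 73120000). Of 9092 type 3 segments, 52.4% were shorter. Only 5.97 kb separated the body from the type 1 segment of 235 kb that began on its upstream side. The upstream 100 kb were 94.0% type 1 and 5.97% type 3, and the downstream 100 kb, towards Six6, were 50% type 3, 35% type 4 and 15% type 1. All the type 4 in the Six4 window came from 1 segment of 35 kb (73020001 to 73055000), which also reached 24.9 kb into the Six6 window. Mnat1, which encodes an assembly factor of the CDK-activating kinase, overlaps the Six4 body over 1847 bases and was 95.2% type 1. The Six4 window was 50.8% type 1, 32.8% type 3 and 16.3% type 4, and it was the only one of the 5 led by type 1.

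Six5 (gene ID 20475, chromosome 7, 19094544 to 19098549, plus strand), which lies next to the protein kinase gene Dmpk, was in a type 3 segment of 70 kb (19060001 to 19130000). Of the type 3 segments, 76.5% were shorter. Its surroundings were crowded: 14 protein-coding genes, Six5 included, overlapped its window, against a median of 5 over all protein-coding genes, of which 93.3% had fewer. The other 4 windows held 2 or 3. Of its 13 neighbours, 11 lay mostly in type 3, 8 of them wholly, and 2 mostly in type 1. Dmpk, 0.722 kb away, Bhmg1, which overlaps Six5 over 279 bases, and Foxa3, a liver and gut forkhead factor gene, were wholly type 3. Sympk, a gene of messenger RNA 3′ end processing, was 97.9% type 1. The Six5 window was 70.6% type 3, 24.5% type 1 and 4.90% type 4, and its type 4 came from 10 kb under Eml2, a microtubule-associated protein gene that was 28.5% type 4.

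**Figure D2:**
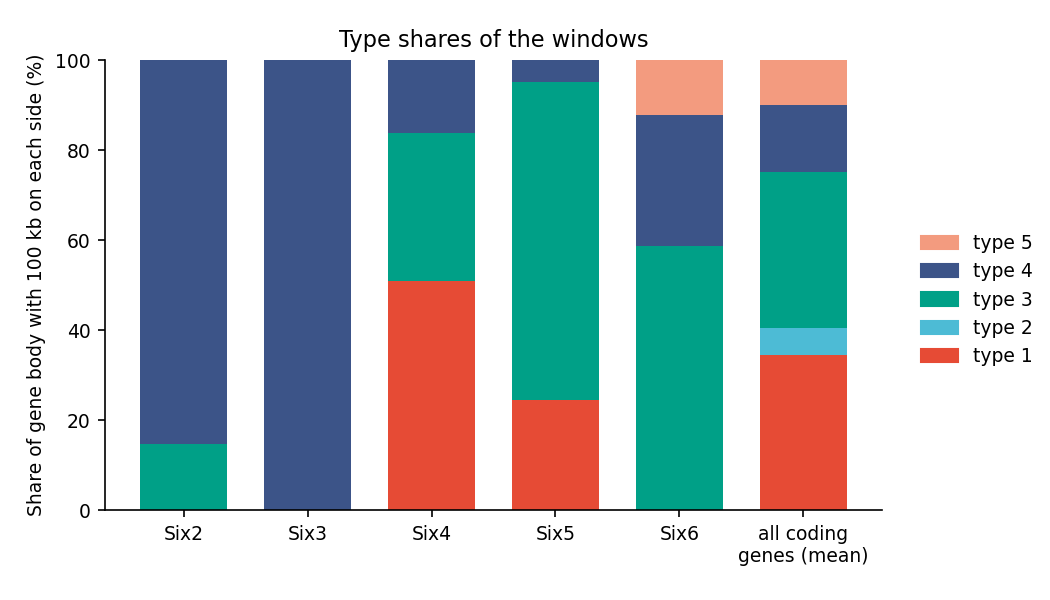
Share of each type (%) in the gene body with 100 kb on each side, for the 5 genes and as the mean over all 20558 protein-coding genes. Type 4 runs from 4.90% around Six5 to 100% around Six3, against a mean of 14.8%, and type 2 is absent around all 5 genes.

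By window, type 4 was the leading type for 2 of the 5 genes, type 3 for 2 and type 1 for 1, against 14.1%, 37.7% and 35.2% of all protein-coding genes. No window was led by type 2 or type 5, which led 3.29% and 9.63% of all. Over 80% of the window was type 4 for Six2 and Six3, as for 2.24% of all genes. Types 3 and 4 together made up over 80% for Six2, Six3 and Six6, as for 24.0% of all genes, and they made up the whole window for Six2 and Six3, as for 7.69%. Type 2 was absent from all 5 windows, as from 64.4% of all. The median type 4 share was 29.2% over the 5 genes and 0% over all protein-coding genes, for which the upper quartile was 23.6%. Six4 (16.3%) and Six5 (4.90%) were below that quartile.

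The windows differed in how often the type changed. The Six3 window had no border and the Six2 window had 1, while those of Six4 and Six6 had 5 each and that of Six5 had 6. The median over all protein-coding genes was 4. Per 100 kb these were 0 for Six3, 0.443 for Six2, 2.33 for Six4, 2.44 for Six6 and 2.94 for Six5, against a median of 1.48 (quartiles 0.930 and 2.21). The genes thus fell on both sides of the middle range, Six2 and Six3 below it and the others above.

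As the flank was widened, Six2 and Six3 kept a type 4 share above the mean of all genes. Around Six6 the share was below that mean from 230 to 460 kb and above it at the other flanks up to 500 kb. At 500 kb on each side type 4 took 42.4% around Six2 and 43.0% around Six3, against a mean of 16.7% over all genes. Around Six6 it took 77.7% at 20 kb, 53.8% at 30 kb, 29.2% at 100 kb and 17.3% at 200 kb, where the mean of all genes was 15.6%. It was 11.6% at 300 kb and 20.9% at 500 kb. Around Six4 type 4 first entered between 40 and 50 kb. Around Six5 it was at most 7.23% at the flanks taken every 10 kb, and type 3 still took 61.3% at 500 kb, against a mean of 32.3%.

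**Figure D3:**
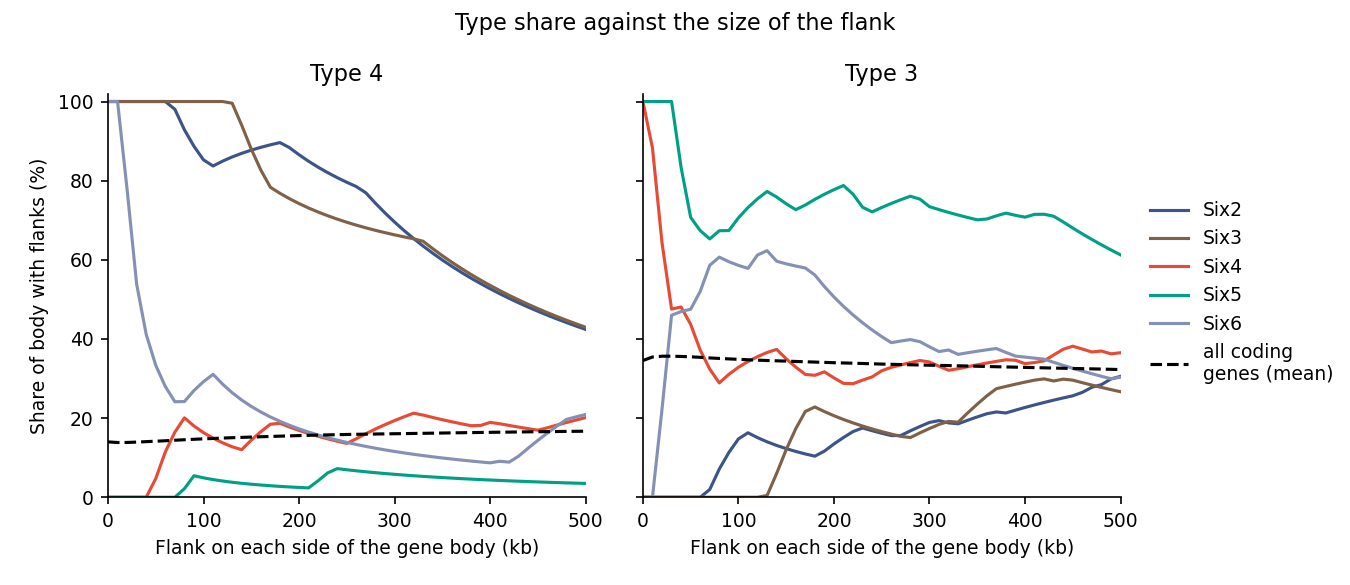
Share (%) of type 4 (left) and of type 3 (right) in the gene body with flanks, against the flank on each side (kb), for the 5 genes (solid) and as the mean over all protein-coding genes (dashed). The Six2 and Six3 curves stay above the dashed type 4 curve to 500 kb. The Six6 curve, at 17.3% at 200 kb, is below the dashed curve at 300 kb and above it again at 500 kb.

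Known relatives were set beside genes on the same chromosome. Six3 with Six6, and Six4 with Six5, are known as the closest relatives by protein among these genes, which was not measured here. Six2 with Six3 lie 36.5 kb apart and Six4 with Six6 lie 155 kb apart. The difference between a pair of windows was taken as the summed differences of the 5 type shares, divided so that it runs from 0 to 100 points. It was 14.7 points for Six2 and Six3, whose windows have 163 kb in common. Of all protein-coding genes, 2.52% were closer to Six2 and 1.60% closer to Six3. Bases in common limit how large the difference can be, so pairs with shared windows are not on equal terms with the others. For Six3 and Six6 it was 70.8 points, with 21.0% of genes closer to Six3 and 69.3% closer to Six6. For Six4 and Six5 it was 37.8 points, with 39.4% of genes closer to Six4 and 40.4% closer to Six5. For Six4 and Six6, whose windows share 45.3 kb, it was 50.8 points, with 65.6% of genes closer to Six4 and 48.1% closer to Six6. The smallest difference between genes on different chromosomes was 36.5 points, between Six5 and Six6. Over the 10 pairs the difference ran up to 95.1 points, between Six3 and Six5.

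The same measure named the genes with the most similar windows over 1 Mb away or on other chromosomes. For Six2 they were the homeobox gene Irx5 (0.0152 points), the arrestin gene Arrb1 (0.0194) and the ligand gene Bmp7 (0.0615). For Six3, 83 named genes had a window wholly in type 4, the first by alphabet being the receptor genes Adgra1, Adgrb1 and Adra2c. For Six4 they were the GTPase gene Drg2 (0.0688 points), the ubiquitin ligase gene Nedd4 (1.23) and Gid4 (1.30), of which Drg2 and Gid4 lie close together on chromosome 11. For Six5 they were the matrix metalloproteinase gene Mmp15 (0.450 points), Fnbp1 (0.550) and the glutaredoxin gene Glrx (0.749). For Six6 they were Adgre5 (2.96 points), the proteasome maturation gene Pomp (3.03) and the transcription factor gene Onecut2 (6.60).

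The partner genes were spread over all types. Of 9 genes of the Pax-Six-Eya-Dach network on these chromosomes, type 4 led in 3 bodies, types 3 and 2 in 2 each, and types 1 and 5 in 1 each. In type 4 were Pax8, a thyroid and kidney factor gene (100%), the coactivator gene Eya2 (76.4%) and Pax3, a neural crest and muscle factor gene (73.9%). Pax2, a kidney and ear factor gene, and Pax6 lay in type 3 (79.9% and 96.3%). The coactivator genes Eya1 and Eya4 were 53.5% and 77.5% type 2, Eya3 lay wholly in type 1, and Dach1, a corepressor gene, lay wholly in type 5.

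Genes that work in the same tissues were read in the same way. Of 5 eye field and retina genes, Lhx2, Otx2 and Rax lay in type 4 (100%, 100% and 91.9% of the body) and Nr2e1 and Pax6 in type 3. The Otx2 window was 98.7% type 4, and that of Myod1, from the muscle list below, was 93.0%, next to 100% for Six3. Of 6 nephron progenitor genes on these chromosomes, Osr1, Sall1 and Wt1 lay wholly in type 4, Gdnf and Pax2 in type 3 and Eya1 in type 2. In these lists the type 4 bodies of Osr1, Rax and Pax3, like that of Six6, stood in windows led by another type. Type 4 took 7.24% of the window around Osr1, 22.0% around Rax and 30.4% around Pax3, and 29.2% around Six6. Of 7 skeletal myogenesis genes, Myod1 and Pax7 (100% each) and Pax3 lay in type 4, Myog in type 3, and Myf5, Myf6 and Mef2c wholly in type 5. With each gene counted once, type 4 led in 11 of 23 bodies and type 3 in 5, while 4 were led by type 5, 2 by type 2 and 1 by type 1. Over all protein-coding genes, 14.0% of bodies were led by type 4 and 33.8% by type 3. Type 5 led 9.53%, type 2 led 5.44% and type 1 led 37.2%. The median type 4 share of the window was 30.4% in the network list, 44.1% in the eye list, 19.6% in the nephron list and 27.2% in the muscle list, against 0% over all protein-coding genes.

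**Figure D4:**
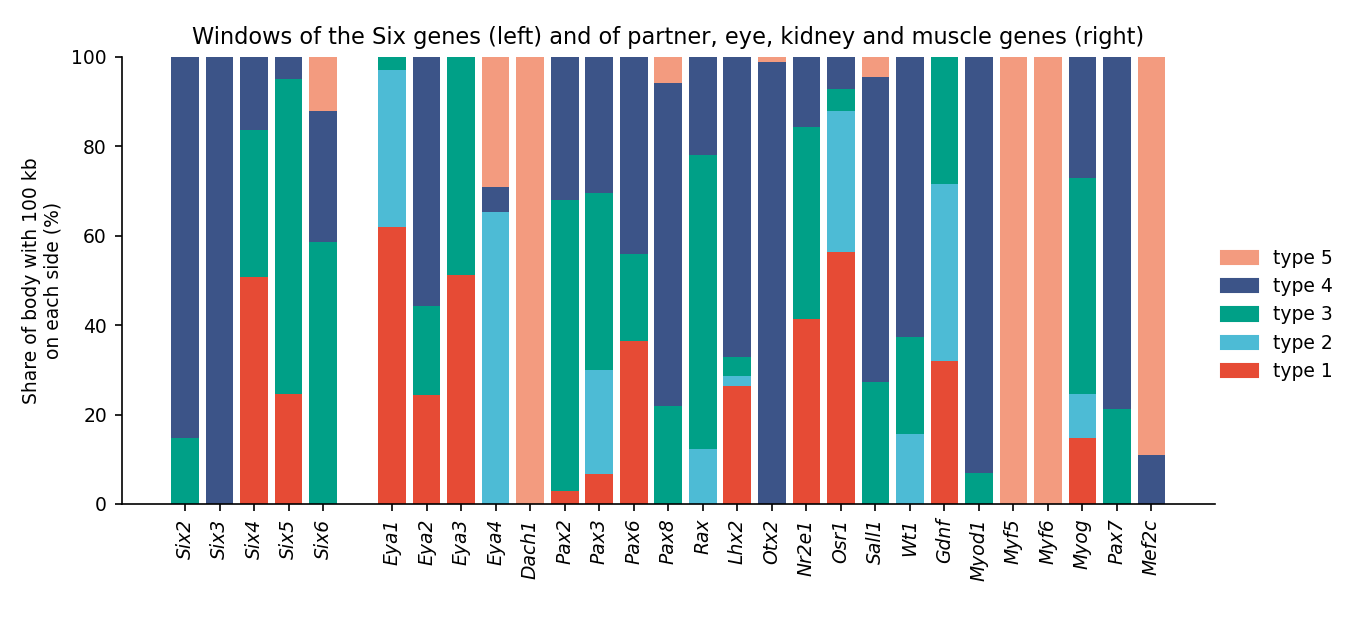
Share of each type (%) in the gene body with 100 kb on each side, for Six2 to Six6 at the left and for 23 genes of the network, eye, nephron and muscle lists at the right, each drawn once. The windows with most type 4 are those of Six3 (100%), Otx2 (98.7%) and Myod1 (93.0%), and those of Dach1, Myf5 and Myf6 are wholly type 5.

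The start sites of Six2, Six3 and Six6 lay in type 4 and those of Six4, which has 2 that lie 180 bases apart, and of Six5 in type 3, as their bodies did. The Six3 start site, 85620834, lies inside the gene body as the RefSeq gene table gives it, from 85613608, so the Six3 sequence window is within that body. Both Six4 start sites, 73113425 and 73113245, and their windows likewise lie inside the Six4 body, which runs to 73114031. In the 250 bases before the start, Six2 had 26 CpG dinucleotides, Six6 had 17 and Six3 had 10. The observed over expected CpG ratio, which corrects for base content, was 1.02 for Six2, 0.691 for Six6 and 0.673 for Six3. The median was 0.463 (quartiles 0.222 and 0.715) over 3079 windows of protein-coding genes with the start in type 4. All 3 genes were above that median, and Six2 alone was above the upper quartile. Of all 20078 windows, 93.1% had a lower ratio than Six2, 62.5% than Six6 and 60.7% than Six3. The median over all these windows was 0.547, so the type 4 median was the lower of the 2. Six3, in the same segment, had the fewest CpG and a GC content of 48.8%, against 64.8% for Six2 and 62.8% for Six6. For the type 3 genes the ratios were 0.642 and 0.700 at the Six4 starts and 0.546 at Six5, near the type 3 median of 0.617 over 8135 windows.

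**Figure D5:**
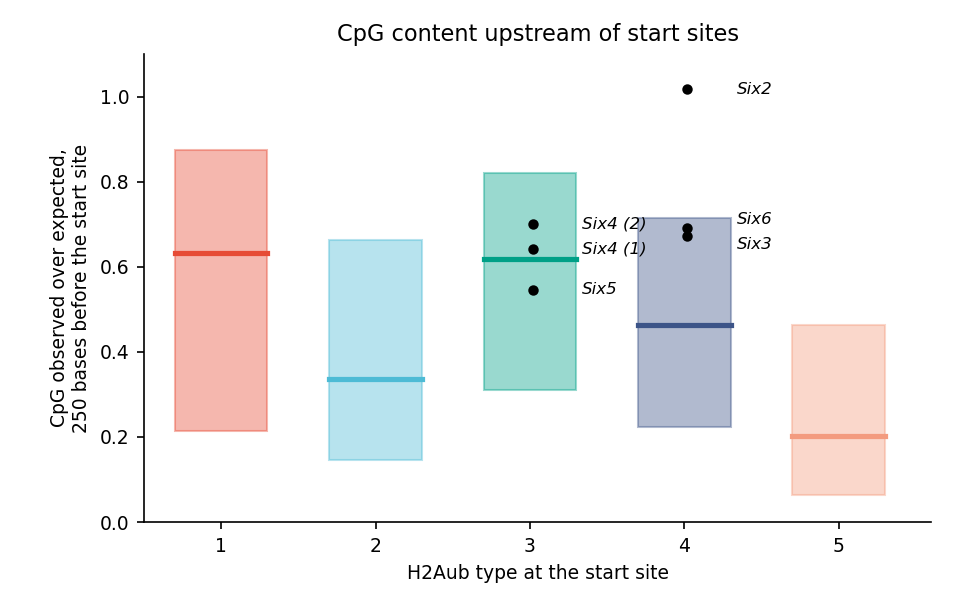
Observed over expected CpG ratio in the 250 bases before the start site (vertical axis), by the H2Aub type at the start site (horizontal axis). Boxes run from the lower to the upper quartile of all protein-coding windows with a line at the median, and points are Six2 to Six6, with both start sites of Six4. Six2 at 1.02 is above the type 4 box, and the other points lie within the boxes of their types.

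In the sequences shown above, Six2 and Six6 share a pair of runs in the same order and on the gene's own strand. GTGACTGACAG is followed after 1 base in Six2, and after 3 bases in Six6, by GTCTCCATGGCG. The first run, on either strand, was in 6 of the 20078 windows (0.0299%) and the second in 8 (0.0398%). Both stood together in 2 windows, those of Six2 and Six6. In Six6 the pair ends 25 bases before the start and in Six2 143 bases before it. Six3 and Six6 share TTGATTGGCAG, present in 10 windows (0.0498%), 142 bases before the Six3 start and 60 before the Six6 start. The runs shared with Six4 and Six5, CCCCCCTCCGG in Six3 and GAGGGGGGCGG in Six2, are rich in C or G and were in 19 and 67 windows. The runs were searched for after the sequences had been seen, and a shared run is a description and not a binding site.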

How the data were processed

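Per the submitters' processing notes, the tools were deepTools 3.0.2, Picard 2.8.0, Bowtie2 2.3.4.3 and Trim Galore 0.4.5, with mm10. The deposited table, named by the authors as ChromHMM types of H2Aub, gives 31563 segments a type label from 1 to 5, a category with no unit. ChromHMM assigns stretches of a genome to states with a hidden Markov model. The sources used here give neither its version, nor its input libraries, nor what the types mean. No column belongs to a single library, so no mean, error or test over samples was possible, and depth is unknown.

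All segment ends were multiples of 5 kb. In 261 of 492539 bins of 5 kb segments overlapped, and the shorter one was used. Genes came from a RefSeq table of GRCm38.p6, the build of mm10. It had 49997 genes, of which 333 on separate scaffolds were left out, and 46709, among them 20558 protein-coding, lay on chromosomes 1 to 19. Base pairs of each type were summed over the gene body alone and with 100 kb on each side, and the type with most base pairs led. The 250 bases before each start site came from RefSeq promoter sequences, in which all 5 genes matched. The 20078 windows came from 16452 protein-coding genes, so some of the 20558 had no window and some had several. CpG was counted as CG, and its expected count as C times G over the length. Strands were taken from that table. Protein sequences were not used here.

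The text names the 5 genes, the genes of the fixed lists, coding genes nearest to or across the windows, and the 3 genes with the most similar windows for each. Non-coding neighbours were named after their types were seen. The members and lists were chosen with earlier results of these data known. Dach2 and Cited1, on the X chromosome, were not analysed here, and 2 protein-coding genes are not reported here: 1 of the eye list, whose counts and medians leave it out, and 1 that overlaps the windows of Six4 and Six6 and is counted among the genes there. Alternatives were flanks of 50 and 200 kb, the longer segment in overlaps, shares of segment number, and the type at the middle, ends or start site of the body or with 5 kb on each side. The start site was added after the data were examined. Summation was tested on simulated segments. Python 3.11.15, numpy 2.4.6 and pandas 2.3.3 were used.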

Additional observations from a re-analysis of the deposited data

How the results depend on the processing

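With no replicates, a share was said to have moved when it left the exact 95% binomial (Clopper-Pearson) interval of its main value over 5 kb bins, which are not independent. The count of 3 gene bodies in type 4 was 3 under all 6 alternatives run (both overlap and margin choices, the middle and end bins, and the start site). Each body lay wholly in 1 segment, at least 5.97 kb from its ends. The bins, the start site and the 5 kb margin therefore could not change the type of a body. The count of 2 windows led by type 4 was 2 under all 3 alternatives. Of 29 values under alternatives, which include these unchanged counts, 24 did not move and 5 did. With 50 kb flanks the type 4 share was 100% for Six2 (85.3% with 100 kb), 4.71% for Six4 (16.3%) and 0% for Six5 (4.90%). With 200 kb flanks it was 74.2% for Six3 (100%). As a share of the number of segments it was 50% for Six2, whose window holds 2 segments. The first 4 of these 5 follow from where the segments end. The intervals are wide, so some large changes were not counted as moved. Examples are Six6 at 17.3% with 200 kb flanks (29.2% with 100 kb) and Six5 at 14.3% by segment number (4.90%). Taking the longer segment in overlaps changed none of the 5 windows. No paired analysis was possible because the results come from no test and the segmentation has no value for any library, and for that reason no library could be left out. The depth is unknown, so how far it affects each value could not be told.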
